A study of Mus musculus with 2 samples.

Results

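Gad1-rich beta cells are the pancreatic beta cells of mouse islets with the most Gad1 transcripts for their size. Gad1 encodes a glutamate decarboxylase, the enzyme that turns glutamate into the transmitter gamma-aminobutyric acid (GABA). They were taken from droplet single-cell RNA profiles in which each captured RNA molecule carries a unique molecular identifier (UMI), so that UMIs count molecules. Barcodes with at least 500 genes, at least 1000 UMIs and at most 20% of UMIs from mitochondrial genes were kept. Beta cells were the kept barcodes with at least 10000 UMIs, at least 25% of them from the insulin genes Ins1 and Ins2, and under 1% from each of Gcg, Sst and Ppy, the genes of glucagon, somatostatin and pancreatic polypeptide. In each library, the 25% of beta cells with the highest share of Gad1 UMIs in all UMIs made up the Gad1-rich cells. They numbered 687 of 2750 beta cells in the library from flox/flox mice and 764 of 3058 in that labelled BcBKO, so 1451 of 5808 beta cells and of 16072 kept barcodes in all.

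The title of the series names BAF60C, which is encoded by Smarcd3 and belongs to the BAF complexes that remodel chromatin, and type 2 diabetes. Islets of flox/flox mice, whose label names no Cre, were set beside islets of mice labelled BcBKO, a beta-cell ablation that the series ties to Pdx1-cre. Each group was 1 library from islets pooled over at least 3 mice and dissociated with a trypsin substitute, so mice cannot be told apart. Strain, sex, age and the deleted exons are not given in the sources used here. The Pdx1 promoter is active in the embryonic pancreas as well as in adult beta cells, so it does not limit Cre to adult beta cells, and the presence of Cre cannot be told apart from the ablation here. With 1 library per group and cells that are not replicates, no test between groups or classes of cells was possible, and all differences are given as descriptions. Intervals are 95% intervals for the counting of molecules only. Where a pair of values stands without its libraries named, the flox/flox value comes first.

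Beta cells store and release insulin, and in rodents they also make GABA, which acts on neighbouring islet cells through ionotropic and metabotropic receptors. Glutamate decarboxylase has a pair of genes, Gad1 and Gad2, and mouse islets are known to rely mostly on Gad1. GABA is broken down in mitochondria by GABA transaminase, the product of Abat. It is known to leave beta cells partly from the cytosol through volume-regulated anion channels of the Lrrc8 family, in addition to any vesicle release.

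The library of flox/flox islets had 9438 deposited barcodes with 167670996 UMIs and the library labelled BcBKO had 10775 with 178647270. The Gad1-rich cells held 28886361 and 27062964 UMIs, and the other beta cells 91286673 and 89365099. Barcode sequences were shared between the libraries in 23 cases, which included 2 Gad1-rich cells of flox/flox islets and 0 of the other. Smarcd3, the gene named by the title, gave 15 UMIs, or 0.519 UMIs per 1000000 (CPM), in the Gad1-rich cells of flox/flox islets and 17 (0.628 CPM) in those of the library labelled BcBKO. In the other beta cells it was at 0.329 and 0.604 CPM. Its level was therefore not lower under the BcBKO label, and because the kit counts 3′ ends and the deleted part is not given, Smarcd3 does not check the label. The direction of every difference between the libraries below rests on that label.

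Most beta cells carried few Gad1 molecules. In flox/flox islets 37.3% of beta cells had 0 Gad1 UMIs, and in the library labelled BcBKO 47.2%. The Gad1-rich cells had 1 to 18 Gad1 UMIs (median 4) in flox/flox islets and 1 to 11 (median 3) in the library labelled BcBKO, while the other beta cells had up to 8 and up to 4. Summed over cells, Gad1 (ENSMUSG00000070880, mm10 chromosome 2, 70553072 to 70602014, plus strand) was at 106 CPM (102 to 110) in the Gad1-rich cells against 19.5 CPM (18.6 to 20.4) in the others of flox/flox islets. In the library labelled BcBKO it was at 89.9 CPM (86.3 to 93.5) against 12.3 CPM (11.6 to 13.1). These values chose the cells and carry no further information about them. The class had no natural border. In flox/flox islets the last cells inside it had 62.59, 62.56 and 62.54 CPM and the first outside 62.52, 62.34 and 62.32 CPM. Under the BcBKO label these cells had 48.20, 48.09 and 48.02 CPM, and 47.94 CPM in each of the 3 first outside. Most of them had 2 Gad1 UMIs.

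**Figure D1:**
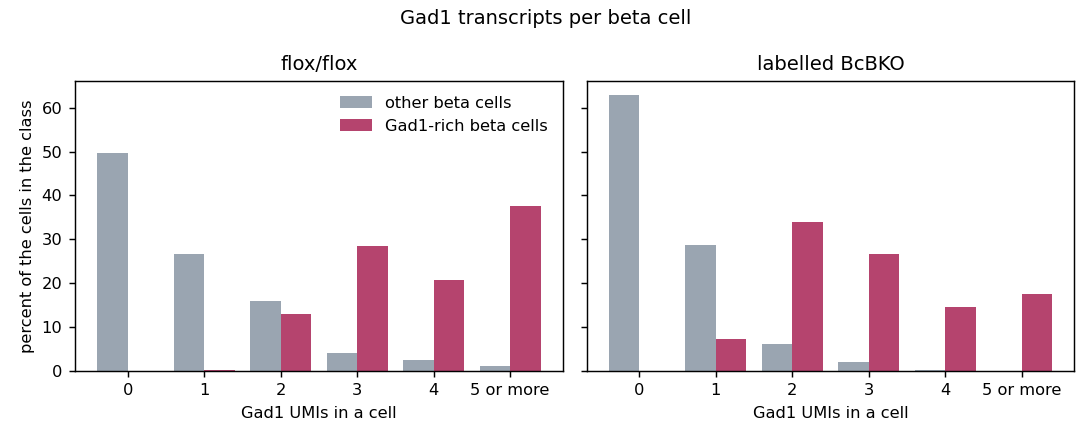
Share of cells (percent of the class, y axis) by number of Gad1 UMIs per cell (x axis) in Gad1-rich and other beta cells of the 2 libraries. Cells with 0 Gad1 UMIs made up 49.8% of the other beta cells in flox/flox islets and 62.9% in the library labelled BcBKO, and cells with 5 or more were 37.6% and 17.4% of the Gad1-rich cells.

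A rank by so few molecules holds much counting noise, so each cell's UMIs were divided at random into 2 parts, cells were ranked on the first part and Gad1 was read from the second. In the second part Gad1 was at 70.2 CPM in the chosen 25% and 32.1 CPM in the remaining beta cells of flox/flox islets, a ratio of 2.19 (2.02 to 2.37). In the library labelled BcBKO it was at 56.1 and 22.9 CPM, a ratio of 2.45 (2.22 to 2.69). Of the cells chosen on the first part, 72.2% and 72.6% were among the Gad1-rich cells chosen on all UMIs. In the part that chose these cells the ratios were 7.90 and 13.35, so that the difference read from the other molecules was much smaller. The variance of Gad1 over beta cells was 2.33 and 2.10 times that of counting alone, while genes of like level had medians of 1.16 (1263 genes) and 1.15 (1523 genes), and 33 of them exceeded Gad1 in each library.

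Gad1 transcripts were sparse in other islet cells. Gad1 was at 5.09 CPM (3.91 to 6.51) in endothelial-like barcodes of flox/flox islets and at 3.80 CPM (2.66 to 5.26) in those of the other library. Alpha-like barcodes had 4.24 and 6.12 CPM, delta-like barcodes 6.39 and 1.99 CPM, and macrophage-like barcodes 4.58 and 2.52 CPM. Mural-like barcodes had 3.34 CPM (1.34 to 6.89) and 7.70 CPM (3.52 to 14.6). These names rest on marker genes alone. Ucn3, a gene of mature beta cells, was at 18.0 and 21.5 CPM in endothelial-like and at 23.9 and 19.4 CPM in macrophage-like barcodes. The part of RNA from beta cells in the Gad1 values of these barcodes was not tested. At a fixed depth of 3000 UMIs, 1.93% of 1506 endothelial-like barcodes in flox/flox islets (196 shallower ones were left out) had a Gad1 UMI, against 24.5% of Gad1-rich and 5.96% of other beta cells. In the library labelled BcBKO the shares were 1.35% of 1187 (286 left out), 25.5% and 3.49%. Without thinning, the endothelial-like shares were 3.29% and 2.31% at median depths of 5216 and 4938 UMIs, and those of the other beta cells 50.2% and 37.1% at 39048 and 34088. The other beta cells, which the rule set low, were still above the endothelial-like share at matched depth. The level of the Gad1-rich cells was set by the rule.

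Npas4, Slc2a2 and Ucn3 had been proposed as marks of these cells, from earlier results on the same libraries, and they are no independent support. Npas4, a transcription factor induced by depolarisation (chromosome 19, 4984355 to 4990316, minus strand), was at 77.9 CPM in the Gad1-rich cells against 56.3 CPM in the other beta cells of flox/flox islets, a log2 ratio of 0.47 (0.40 to 0.54). In the library labelled BcBKO it was at 59.3 against 38.8 CPM, a log2 ratio of 0.61 (0.53 to 0.70). Slc2a2, which encodes the glucose transporter GLUT2 (chromosome 3, 28697903 to 28731359, plus strand), was at 279 against 231 CPM and at 228 against 168 CPM, log2 ratios of 0.27 (0.24 to 0.31) and 0.43 (0.39 to 0.48). Ucn3, the peptide urocortin 3 of mature beta cells (chromosome 13, 3940688 to 3945349, minus strand), was at 282 against 231 CPM and at 296 against 239 CPM, log2 ratios of 0.29 (0.25 to 0.32) and 0.31 (0.27 to 0.35). All 3 were higher in the Gad1-rich cells of both libraries. Within bins of insulin share (described below) Npas4 and Slc2a2 kept a log2 ratio of at least 0.25 in both. Ucn3 did not, at 0.17 and 0.24. In UMIs not used for ranking, and with cells thinned to 10000 UMIs before ranking, only Npas4 of the 3 kept it in both. Slc2a2 also fell short with totals that left out hormone and mitochondrial genes, where Npas4 and Ucn3 did not. Over all alternatives run, the flox/flox ratios lay between 0.309 and 0.771 for Npas4 and between 0.178 and 0.369 for Slc2a2. Those of Ucn3 lay between 0.17 and 0.32.

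Npas4, Slc2a2 and Ucn3 were also seen in a larger share of the Gad1-rich cells at a fixed depth of 10000 UMIs. Npas4 was seen in 43.2% of Gad1-rich and 33.7% of other beta cells in flox/flox islets, and in 33.9% and 25.3% in the library labelled BcBKO. Slc2a2 was seen in 90.2% and 84.1%, and in 84.9% and 75.7%. Ucn3 was seen in 90.2% and 84.5%, and in 91.5% and 85.0%. No beta cell was shallower than this depth. Without thinning, Npas4 was seen in 70.9% and 62.6% of cells and in 56.3% and 49.96%. Most beta cells of both classes thus carried Slc2a2 and Ucn3, and the label describes a difference of degree within beta cells.

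The Gad1-rich cells were slightly shallower and had a slightly lower share of insulin RNA, mostly through Ins1. Their median depth was 37344 UMIs against 39048 in flox/flox islets and 30981 against 34088 in the library labelled BcBKO. The median share of Ins1 and Ins2 was 63.2% against 64.8%, and 61.6% against 62.7%. Total and insulin UMIs are part of the share that chose the cells. With Gad1 ranked over UMIs other than insulin and mitochondrial ones, the median insulin shares were 63.97% against 64.5% and 62.3% against 62.5%. The median mitochondrial share was 2.57% against 2.16%, and 2.97% against 2.49%. Of the Gad1-rich cells, 29.5% and 29.1% belonged to the 25% of beta cells with the lowest insulin share, and 15.7% and 18.2% to the 25% with the highest, where other beta cells had 28.1% and 27.2%. Since Gad1 was ranked over all UMIs and insulin RNA makes up most of them, a lower insulin share raises the share of every other gene. The 25% were therefore also chosen separately within each of 10 bins of insulin share, and those values are given beside the counts. This choice also changes which cells are compared, so the part of the insulin share itself was not tested.

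Among other enzymes of GABA and glutamate metabolism, Gad2 (chromosome 2, 22622205 to 22693874, plus strand) gave 0 UMIs in the Gad1-rich cells of both libraries. A count of 0 allows up to 0.104 CPM in flox/flox islets, and the other beta cells there held 2 Gad2 UMIs. Glul, glutamine synthetase, was at 104 CPM in the Gad1-rich cells against 75.5 CPM in the others, a log2 ratio of 0.46 (0.40 to 0.52). Under the BcBKO label it was at 102 against 80.9 CPM, 0.34 (0.28 to 0.40). Glul was thus higher in the Gad1-rich cells of both libraries. Abat was at 18.8 against 15.95 CPM and at 19.8 against 17.3 CPM, log2 ratios of 0.24 (0.09 to 0.38) and 0.20 (0.05 to 0.34). Got2, a mitochondrial aspartate aminotransferase that makes glutamate, had log2 ratios of 0.35 (0.22 to 0.49) and 0.25 (0.12 to 0.39) at about the same level as Abat. Glud1, glutamate dehydrogenase, had 0.12 (−0.01 to 0.25) and 0.23 (0.10 to 0.35). Glul had ratios of at least 0.25 in each library, and within bins of insulin share its ratios were 0.29 and 0.25, the latter just under that bound.

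Of the transport genes, Slc32a1, the vesicular GABA transporter, and the plasma membrane transporter Slc6a12 gave 0 UMIs in both classes of beta cell of both libraries. Slc6a6, the taurine transporter that also carries GABA, was at 66.2 against 65.6 CPM and at 69.8 against 64.9 CPM. Lrrc8a, the obligatory subunit of volume-regulated anion channels, was at 5.09 against 4.81 CPM and at 5.17 against 4.97 CPM. Their log2 ratios were 0.01 and 0.10 for Slc6a6 and 0.08 and 0.06 for Lrrc8a. Of the receptor subunits, Gabbr1, part of the metabotropic receptor, had log2 ratios of 0.20 (0.01 to 0.40) and 0.25 (0.05 to 0.45) at 10.2 and 10.4 CPM in the Gad1-rich cells. Its partner Gabbr2 had −0.17 (−0.35 to −0.01) and 0.11 (−0.05 to 0.28). The ionotropic subunit Gabra4, at 10.7 and 9.76 CPM in the Gad1-rich cells, had log2 ratios of −0.11 (−0.30 to 0.07) and 0.07 (−0.14 to 0.27).

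Across the transcriptome the classes differed little. The ratio of Gad1-rich to other beta cells was computed for 2734 genes with at least 20 CPM in the beta cells of both libraries, leaving out the 6 genes that the rule used. A gene was called higher or lower at a log2 ratio of 0.25 in either direction. In flox/flox islets 95 genes (3.47%) were higher and 22 (0.805%) lower, and in the library labelled BcBKO 113 (4.13%) and 24 (0.878%). In both libraries 44 genes (1.61%) were higher, which is 46.3% of the flox/flox list and 38.9% of the other, and 16 (0.585%) were lower, 72.7% and 66.7% of the lists. The median log2 ratio of all 2734 genes was 0.06 in both libraries, and 1672 genes (61.2%) were above 0 in both against 551 (20.2%) below.

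The number of higher genes varied with the way the cells were chosen and with the scaling. With the cells chosen within 10 bins of insulin share, 9 genes were higher and 13 lower in both libraries, and all 9 were among the 44. They included Adh1, Cib3, Dcaf12l1, Itpkb, Npas4, Slc2a2, Tnr and Ttc28, of which Itpkb was named after its values were seen. With trimmed mean (TMM) scaling factors, 14 genes were higher and 36 lower, so that 28.0% of the calls were higher against 73.3% with totals. With totals that left out the hormone and mitochondrial genes, 27 were higher and 20 lower (57.4%). With Gad1 divided by UMIs other than insulin and mitochondrial ones, 22 were higher and 21 lower (51.2%). Choices that do not use the insulin share lowered the 44 as well, to 11 with cells thinned to 10000 UMIs before ranking and 25 in UMIs not used for ranking. Of the 16 lower genes, 16 remained lower with TMM factors and 10 within bins of insulin share.

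**Figure D2:**
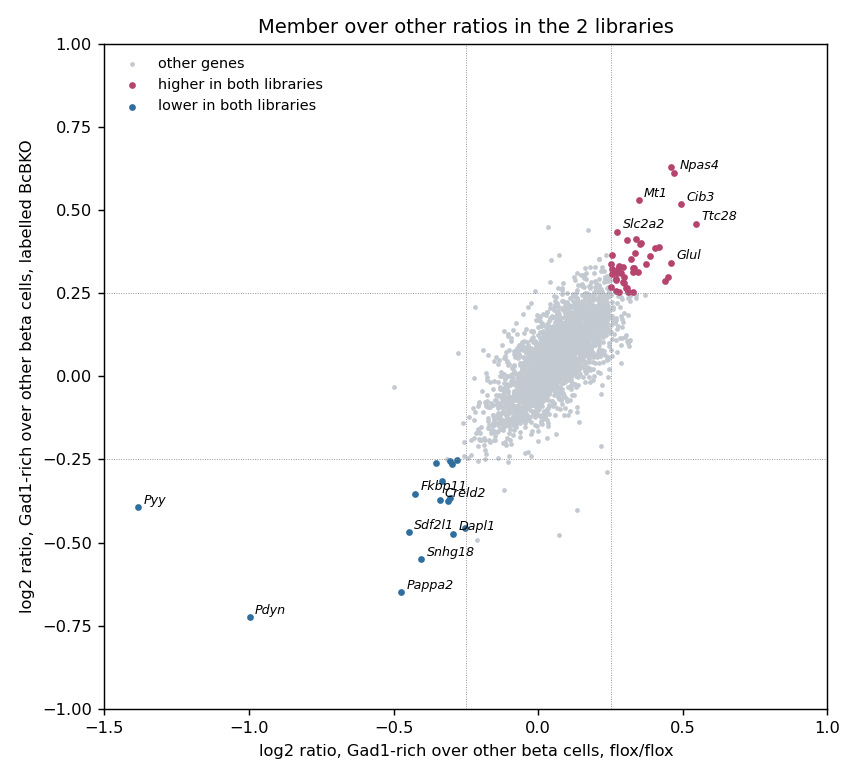
Log2 ratio of CPM in Gad1-rich over other beta cells in flox/flox islets (x axis) and in the library labelled BcBKO (y axis), 1 point per gene for 2734 genes. Dotted lines mark 0.25 in either direction, coloured points the 44 genes higher and 16 lower in both libraries, and 1 gene, Hbb-bs, lies outside the axes.

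The highest ratios, besides Npas4, belonged to a mixed set of genes. Ttc28 was at 71.1 against 48.7 CPM in flox/flox islets and at 74.2 against 54.0 CPM in the library labelled BcBKO, log2 ratios of 0.55 (0.47 to 0.62) and 0.46 (0.38 to 0.53). Endothelial-like barcodes held 180 and 174 CPM of Ttc28 and mural-like barcodes 208 and 181 CPM. The summed level of 10 endothelial markers was 71.4 CPM in Gad1-rich cells against 79.5 in the others of flox/flox islets and 83.2 against 73.4 CPM in the other library, with 0 of them at 0. That of 10 mural markers was 19.1 against 33.5 CPM and 32.0 against 26.5 CPM, with Col1a1 at 0 in the Gad1-rich cells of flox/flox islets. The part of these cells in the Ttc28 values was not tested. Cib3, which encodes a calcium and integrin binding protein, was at 32.9 against 23.4 CPM and at 28.3 against 19.7 CPM, 0.49 (0.38 to 0.60) and 0.52 (0.39 to 0.64). Neat1, a long noncoding RNA of nuclear paraspeckles, was at 54.7 against 41.4 CPM and at 73.1 against 55.9 CPM, 0.40 and 0.39. Others among the 15 highest were Dcaf12l1 (0.42 and 0.39), the extracellular matrix gene Tnr (0.39 and 0.36), the alcohol dehydrogenase Adh1 (0.35 and 0.40), the palmitoyltransferase Zdhhc2 (0.34 and 0.41), the exchange factor Rasgrf1 (0.33 and 0.37), the phospholipase Pla2g2f (0.33 and 0.33) and Rasd1 (0.33 and 0.33), a small GTPase. Neat1, Zdhhc2, Rasgrf1, Pla2g2f and Rasd1 were not called within bins of insulin share. Neat1, Dcaf12l1, Pla2g2f and Rasd1 were not called in UMIs not used for ranking.

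The metallothioneins Mt1 and Mt2, small proteins that bind zinc and copper, were among the highest as well. Mt1 was at 1191 CPM in the Gad1-rich cells against 936 CPM in the others of flox/flox islets, and at 726 against 502.5 CPM in the library labelled BcBKO, log2 ratios of 0.35 (0.33 to 0.37) and 0.53 (0.51 to 0.55). Mt2 was at 198 against 144 CPM and at 129 against 83.3 CPM, 0.46 (0.41 to 0.50) and 0.63 (0.57 to 0.69). Within bins of insulin share the ratios were 0.15 and 0.36 for Mt1 and 0.24 and 0.48 for Mt2. Both genes were thus higher in Gad1-rich cells of each library, less so at matched insulin share in flox/flox islets. In UMIs not used for ranking, Mt2 but not Mt1 kept a ratio of at least 0.25 in both libraries. The 9 other measured antioxidant and metal genes lay between −0.14 and 0.17 in flox/flox islets.

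Of 21 measured genes of mature beta cells, 16 were above 0 in both libraries, 4 below 0 and 4 called higher, with medians of 0.17 and 0.16. Of all compared genes, 61.2% were above 0 in both, 20.2% below and 1.61% called higher, with medians of 0.06. The 4 were Slc2a2, Ucn3, Ppp1r1a, an inhibitor of protein phosphatase 1 (271 against 219 CPM and 239 against 179 CPM), and Sytl4, granuphilin of insulin granules (74.0 against 62.0 CPM and 73.7 against 58.9 CPM). Slc2a2 and Ucn3 had been proposed from earlier results on the same libraries, so their calls are no independent support in this count. The genes below 0 were Pcsk1 (−0.08 and −0.13) and Pcsk2 (−0.06 and −0.11), the proinsulin convertases, Ptprn (−0.13 and −0.11) and Iapp, amylin (−0.07 and −0.09). G6pc2, Slc30a8 and Ffar1 lay between 0.08 and 0.19. Within bins of insulin share only Slc2a2 was called. With TMM factors 0 of the 21 were called higher and 15 stayed above 0 in both libraries, with medians of 0.09 and 0.08.

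Of 14 measured beta-cell transcription factors, 13 were above 0 in both libraries, where 61.2% of all genes were, with medians of 0.15 and 0.15. With TMM factors 10 were, with medians of 0.07 and 0.07. Tshz1 was called higher, though not with TMM factors or within bins of insulin share, at 46.0 against 36.6 CPM and 49.4 against 41.4 CPM (0.33 and 0.25). Etv1 was called lower, at 21.4 against 26.5 CPM and 30.9 against 39.8 CPM (−0.30 and −0.37). Pdx1, Nkx6-1, Neurod1 and Pax6 had ratios between 0.13 and 0.24 in both libraries.

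Of 22 measured immediate-early genes, 18 were above 0 in both libraries, where 61.2% of all compared genes were, and 0 below. Their medians were 0.21 and 0.10. With TMM factors 13 were above and 3 below, and within bins of insulin share 15 and 2. Npas4 and Nr4a1, an orphan nuclear receptor, were called higher, 2 of 22 where all compared genes had 1.61%. Npas4 had been proposed from earlier results on the same libraries, so its call is no independent support in this count. Nr4a1 was at 38.4 against 28.1 CPM and at 35.8 against 29.0 CPM, log2 ratios of 0.45 (0.35 to 0.55) and 0.30 (0.19 to 0.41). Endothelial-like barcodes held 755 and 623 CPM of Nr4a1, and the endothelial marker sum given with Ttc28 was lower in the Gad1-rich cells of flox/flox islets and higher in those of the other library. Its part in Nr4a1 was not tested. Nr4a1 was no longer called with TMM factors or within bins of insulin share. Egr1 was at 373 against 299 CPM (0.32) and 392 against 335 CPM (0.23), and Fos at 714 against 612 CPM (0.22) and 624 against 567 CPM (0.14). Atf3 went opposite ways, 37.4 against 31.7 CPM (0.24) in flox/flox islets and 24.8 against 30.2 CPM (−0.29) in the other.

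Of 15 measured genes of calcium handling and membrane excitability, 14 were above 0 in both libraries and 0 below, with medians of 0.11 and 0.13, and 10 were above with TMM factors. Of all compared genes, 61.2% were above 0 in both and 1.61% were called higher. Atp2a2, the calcium pump SERCA2 of the endoplasmic reticulum (ER), was at 416 against 349 CPM and at 397 against 308 CPM (0.26 and 0.36). Camk2n1, an inhibitor of the calcium-dependent kinase CaMKII, was at 345 against 272 CPM and at 320 against 257 CPM (0.34 and 0.31). Both were called higher, but neither with TMM factors or within bins of insulin share. Abcc8, the sulfonylurea receptor of the ATP-gated potassium channel, was at 138 against 130 CPM and 143 against 134 CPM, close to the median of all genes.

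All 12 measured mitochondrial-encoded genes were above 0 in both libraries, where 61.2% of all compared genes were, with medians of 0.23 and 0.22. All 12 stayed above 0 under every alternative choice of cells and scaling that was run. mt-Nd2, mt-Nd5 and mt-Atp8 were called higher, 3 of 12 where all compared genes had 1.61%. None of the 12 was called within bins of insulin share or of total UMIs, with TMM factors, with thinned cells, in the UMIs not used for ranking, for the highest 50% or with Gad1 over UMIs without insulin and mitochondrial genes. mt-Nd2, a subunit of respiratory complex I, was at 1087 against 887 CPM and 1314 against 1080 CPM. mt-Co1, a subunit of complex IV, had the smallest ratio in flox/flox islets, at 4393 against 3888 CPM (0.18), and was at 5001 against 4441 CPM (0.17) in the other. The nuclear-encoded subunits of the same complexes did not follow by as much: of 37 measured 0 were called, and their medians were 0.07 and 0.05 and, with TMM factors, −0.01 and −0.03. Within bins of insulin share the medians of the mitochondrial-encoded genes were 0.12 and 0.17. The mitochondrial share is also a measure of RNA quality, and its part in the other differences was not tested.

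The lowest ratios in flox/flox islets belonged to a pair of peptide genes, Pyy and Pdyn. Pdyn, prodynorphin (chromosome 2, 129686565 to 129699844, minus strand), was at 21.1 CPM in the Gad1-rich cells against 42.2 CPM in the other beta cells of flox/flox islets, a log2 ratio of −0.998 (−1.12 to −0.87). In the library labelled BcBKO it was at 59.6 against 98.5 CPM, −0.72 (−0.80 to −0.65). At 10000 UMIs, 14.99% against 20.5% and 28.8% against 38.3% of cells had a Pdyn UMI. Without the 1% of beta cells that had the most Pdyn, which were 27 and 30 cells with 0 and 2 Gad1-rich ones among them, the ratios were −0.66 and −0.54. Pdyn was thus lower both through a few very high cells outside the class and across the remaining cells.

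Pappa2, a protease that cleaves IGF binding proteins, was at 30.3 against 42.0 CPM and at 49.8 against 78.2 CPM, log2 ratios of −0.47 (−0.58 to −0.37) and −0.65 (−0.74 to −0.57). Dapl1 was at 98.0 against 120.1 CPM and 144 against 200 CPM (−0.29 and −0.47), and Cd200, an immunoregulatory surface protein, at 61.3 against 73.2 CPM and 63.7 against 87.3 CPM (−0.25 and −0.46). Nucb2, the nesfatin precursor, was at 98.1 against 122 CPM and 122 against 159 CPM (−0.31 and −0.38). Neither Dapl1 nor Nucb2 was called within bins of insulin share, with thinned cells, in UMIs not used for ranking or for the highest 50%. Over all alternatives run, Dapl1 in flox/flox islets lay between −0.40 and −0.08. Chgb, chromogranin B of secretory granules, was at 304 against 377 CPM and 396 against 471 CPM, with ratios of −0.31 and −0.25, just short of the call in the library labelled BcBKO. Snhg18, a noncoding RNA, had −0.41 and −0.55, and Bambi, a TGF-beta pseudoreceptor, −0.30 and −0.26. Neither Cd200 nor Bambi was called in UMIs not used for ranking or with a limit of 0.2% for each of Gcg, Sst and Ppy. Cd200 was also not called once barcodes marked as doublets (described below) were left out. Bambi was also not called for the highest 50%, and Snhg18 not with thinned cells.

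Pyy, the gene of peptide YY, was at 84.7 against 221 CPM in flox/flox islets and at 294 against 386 CPM in the library labelled BcBKO, log2 ratios of −1.38 and −0.39. It is abundant in other islet cells, with 37598 and 27865 CPM in alpha-like barcodes. In flox/flox islets the 27 beta cells with the most Pyy held 50.8% of its UMIs, and 0 of them were Gad1-rich. Without the 1% of cells with the most Pyy, the ratios were −0.19 (−0.26 to −0.13) and −0.38 (−0.43 to −0.34), so that the flox/flox value rested on those cells. Over all alternatives run, the BcBKO ratio lay between −0.96 and −0.03, and Pyy was no longer called with thinned cells, against the 25% with the lowest Gad1 share, without the 5% deepest cells or with a limit of 0.2% for the other hormones. The summed level of 6 pancreatic polypeptide cell markers, Pyy and Ppy included, was 226 against 446 CPM and 544 against 711 CPM. That of 8 delta cell markers was 138 against 226 CPM and 318 against 408 CPM, with Bhlhe22 at 0 in the Gad1-rich cells of both libraries and Ghsr in those of the first. Both sums were lower in the Gad1-rich cells, and their part in the lower genes was not tested.

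Sdf2l1, Fkbp11, Creld2 and Manf, genes of protein folding in the ER, were lower in the Gad1-rich cells of both libraries. The ER is where proinsulin is folded, and its chaperones are induced by the unfolded protein response. Of 30 measured genes of this list, 20 were below 0 in both libraries (all genes 20.2%) and 7 above (all genes 61.2%). Of the list, 4 were called lower (all genes 0.585%) and 0 higher, with medians of −0.07 and −0.11 against 0.06 for all genes. Over all alternatives run, 17 to 23 of the list were below 0 in both libraries. Within bins of insulin share 21 were, with medians of −0.08 and −0.14, but Creld2 and Manf were no longer called, which left 2 of 30. With TMM factors 23 were below 0 and 8 called lower.

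Sdf2l1, a cofactor of the chaperone BiP (chromosome 16, 17130138 to 17132383, minus strand), was at 111 CPM in the Gad1-rich cells against 152 CPM in the others of flox/flox islets, a log2 ratio of −0.45 (−0.50 to −0.39). Under the BcBKO label it was at 126 against 174 CPM, −0.47 (−0.52 to −0.42). Fkbp11, a prolyl isomerase of secretory cells, was at 84.5 against 113 CPM and 125 against 160 CPM (−0.43 and −0.35). Creld2, an ER stress-induced protein, was at 41.8 against 52.98 CPM and 49.9 against 64.6 CPM (−0.34 and −0.37). Manf, a secreted ER stress protein, completed the 4, at 330 against 401 CPM and 348 against 414 CPM (−0.28 and −0.25), and was named after its values were seen. Manf was also not called with thinned cells, in UMIs not used for ranking, within bins of total UMIs or for the highest 50%. It was not called without barcodes marked as doublets (described below) either. Sdf2l1, Fkbp11 and Creld2 kept the call in each of these. The main chaperones lay nearer 0, with Hspa5, which encodes BiP, at 781 against 814 CPM (−0.06) and 795 against 851 CPM (−0.10). Xbp1, Atf4 and Ddit3, transcription factors of the response, lay between −0.05 and 0.22. Outside the list, Tmed3 (−0.33 and −0.32), which acts in ER to Golgi transport, Sec11c (−0.31 and −0.25), a subunit of the signal peptidase, and Edem2 (−0.35 and −0.26), of ER-associated degradation, were among the 15 lowest genes. None of Tmed3, Sec11c and Edem2 was called with thinned cells or in UMIs not used for ranking.

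A known promoter element of this response is the ER stress response element, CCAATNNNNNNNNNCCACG. Both strands of the 250 bases before each RefSeq gene start (GRCm38.p6, the same assembly as mm10) were searched for it, because 4 ER genes were called lower. It was found in 0.130% of 27025 genes with a promoter, in 8 of 2138 compared genes that matched by symbol (0.374%), and in 7 of 26 ER list genes. Since the list holds genes of this response, its share is no result about the Gad1-rich cells. Of the 16 genes lower in both libraries, 13 had a promoter and 1, Creld2, held the element. The matches in the ER list are given 5′ to 3′ along the strand that holds the element, with its fixed letters in capitals.
Calr: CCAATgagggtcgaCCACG
Canx: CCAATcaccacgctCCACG
Creld2: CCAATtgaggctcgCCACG
Dnajc3: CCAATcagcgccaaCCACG
Hsp90b1, nearer match: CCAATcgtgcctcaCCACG
Hsp90b1, farther match: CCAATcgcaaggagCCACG
Hspa5: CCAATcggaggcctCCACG
Pdia6: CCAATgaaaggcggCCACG

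Genes with the element did not share 1 ratio. Creld2 was at −0.34 and −0.37, Pdia6 at −0.26 and −0.24, Dnajc3 at −0.20 and −0.19, and Hsp90b1 at −0.07 and −0.12. Calr was at 298 against 301 CPM and 355 against 356 CPM, and Canx was at 0.11 and 0.13. Sdf2l1, Fkbp11 and Manf are not among the genes with a match in this window, which says nothing of the factors that bind there. Only 26 of the 30 list genes had a promoter, so a gene without a match may not have been searched. For 6 of the 7 promoters with a match, bases after the start occurred in an annotated transcript of the gene. The Creld2 match lies at chr15:88819520-88819538, 107 bases before the gene start and on the minus strand. The 250 bases before Creld2 (chr15:88819396-88819645, plus strand) are given below with the reverse complement of the element in capitals, as the 1 promoter that joins the element to a called gene.
Creld2: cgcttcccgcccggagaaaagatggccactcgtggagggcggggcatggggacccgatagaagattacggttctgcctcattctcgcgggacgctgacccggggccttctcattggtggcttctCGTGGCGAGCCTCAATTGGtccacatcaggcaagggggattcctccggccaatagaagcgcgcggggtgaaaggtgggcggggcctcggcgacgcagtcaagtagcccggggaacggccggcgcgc

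The cyclic AMP response element TGACGTCA, its own reverse complement, was searched in the same windows because Npas4 and Nr4a1 were called higher. It was found in 1.77% of genes with a promoter and 4.35% of compared ones. It was in 0 of 28 genes higher in both libraries and 0 of 13 lower ones that had a promoter, and in 3 of 18 immediate-early genes, Btg2, Dusp1 and Errfi1. Their ratios were 0.17 and 0.21, 0.24 and 0.16, and 0.22 and 0.08.

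Of 12 measured heat-shock chaperones, 11 were above 0 in both libraries, where 61.2% of all compared genes were, and 0 below. Their medians were 0.20 and 0.10 with 0 called in both, but 6 were above 0 within bins of insulin share and 8 with TMM factors. Hsph1 was at 183 against 145 CPM (0.34) and 173 against 147 CPM (0.23), and Dnajb1, an Hsp40 cochaperone, at 505 against 413 CPM (0.29) and 470 against 398 CPM (0.24).

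Of 27 genes of granules and exocytosis, 14 were above 0 in both libraries and 9 below. Sytl4 was among the genes called higher, while cargo and processing genes such as Chgb and Pam lay below. The list's medians of 0.02 and 0.03 turned to −0.06 and −0.04 with TMM factors, and 9 genes were above 0 and 12 below within bins of insulin share. Of 24 ribosomal protein genes, 6 were above 0 and 8 below in both libraries, with medians of 0.01 and −0.02 that became −0.07 and −0.09 with TMM factors. Of 18 genes of glycolysis and the TCA cycle, 14 were above 0, 2 below and 0 called, with medians of 0.09 and 0.09, and with TMM factors 8 were above and 4 below. Of 6 measured BAF subunits, 5 were above 0, 0 below and 0 called, with medians of 0.16 and 0.12, and 3 were above with TMM factors. Beside these lists, 61.2% of all compared genes were above 0 in both libraries, 20.2% below and 1.61% called higher. Genes that beta cells are known to repress were all under the 20 CPM minimum.

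**Figure D3:**
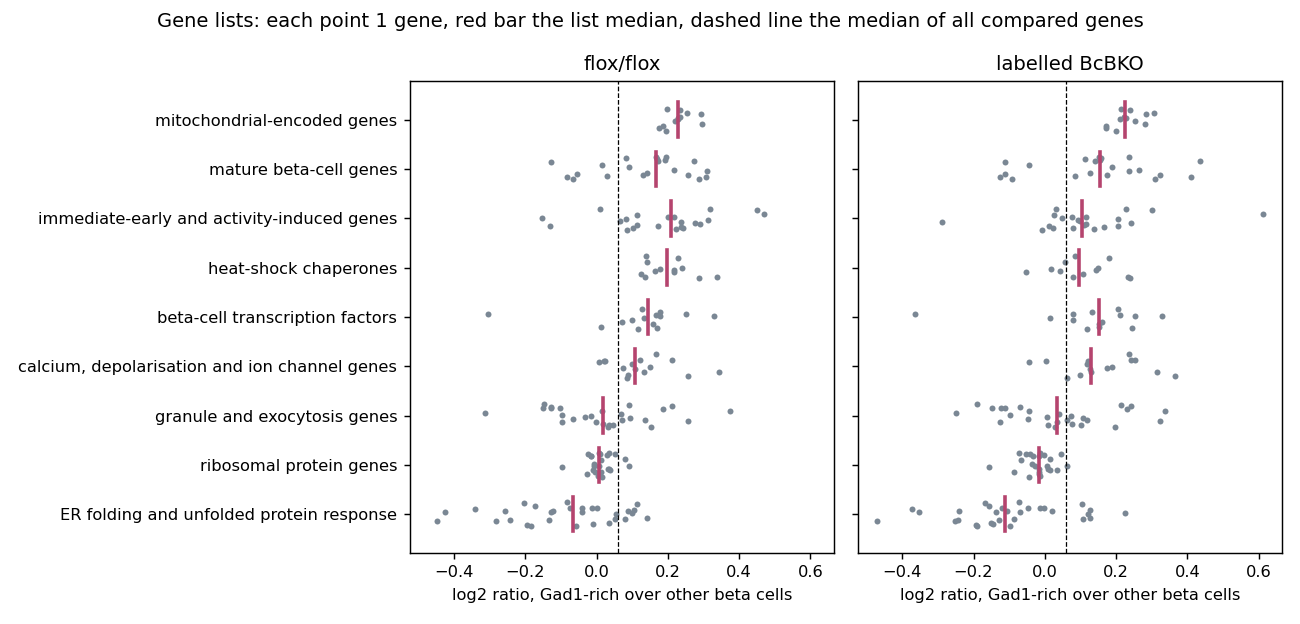
Log2 ratio of Gad1-rich over other beta cells (x axis) for the measured genes of 9 lists in each library. Each point is 1 gene, the red bar is the list median, and the dashed line is the median of all compared genes at 0.06. Mitochondrial-encoded genes lie above it in both libraries, and most of the ER folding list lies below.

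Within the beta cells, several of these genes followed the Gad1 content in steps. Npas4 in flox/flox islets was at 50.7 CPM in cells with 0 Gad1 UMIs, 60.5 in cells with some that were not Gad1-rich, 77.9 in Gad1-rich cells and 81.7 in the 10% with the highest Gad1 share. Under the BcBKO label the values were 37.6, 40.4, 59.3 and 72.7 CPM. Pdyn went the opposite way, at 48.0, 37.6, 21.1 and 16.1 CPM and at 101, 95.1, 59.6 and 42.6 CPM. Sdf2l1 was at 158, 147, 111 and 101 CPM and at 189, 156, 126 and 103 CPM. Mt2 did not follow in steps, with 151 and 139 CPM in the first and second class of flox/flox islets before 198 and 212 CPM. Cells with some Gad1 that were not Gad1-rich were the deepest, with a median of 42345 UMIs against 36593 in cells with 0 Gad1 UMIs in flox/flox islets, and 41973 against 31476 in the other. The 10% are part of the Gad1-rich cells. The genes here were named by their ratios between the same cells, so their order is a description. In flox/flox islets Bambi and Cib3 turned back, from 67.0 and 32.9 CPM in Gad1-rich cells to 71.7 and 32.0 CPM in the 10%. The median insulin share over these classes in order was 64.4%, 65.1%, 63.2% and 62.4%, and 62.5%, 63.1%, 61.6% and 60.6% under the BcBKO label.

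**Figure D4:**
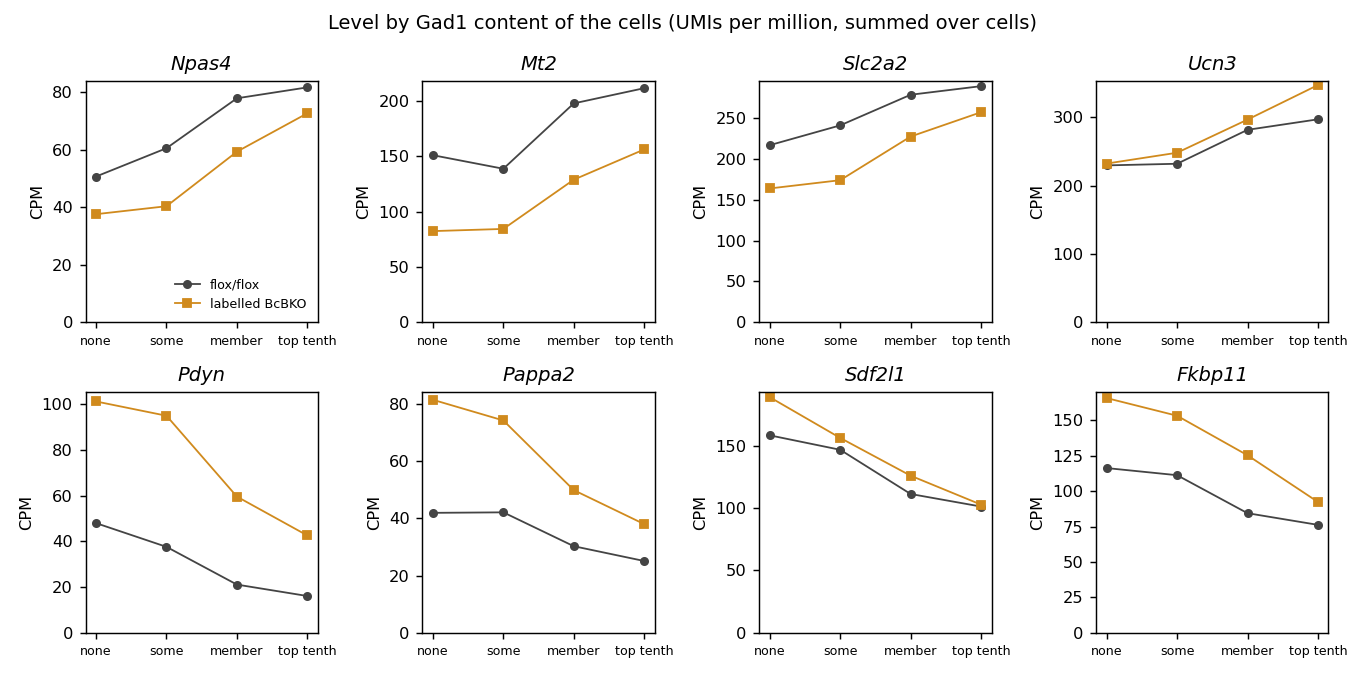
Level (CPM summed over cells, y axis) of 8 genes in beta cells with 0 Gad1 UMIs, with some but not Gad1-rich, in Gad1-rich cells and in the 10% with the highest Gad1 share (x axis), for both libraries. Npas4 and Slc2a2 increase over the 4 classes in both libraries, and Pdyn, Sdf2l1 and Fkbp11 decrease.

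Between the libraries, the Gad1-rich cells differed much as the other beta cells did. Gad1 over all beta cells was at 40.3 CPM in flox/flox islets and 30.3 CPM in the library labelled BcBKO. Within Gad1-rich cells, 150 of 2734 genes (5.49%) were higher under the BcBKO label by a log2 ratio of 0.25, and 45 (1.65%) were lower. In the other beta cells the counts were also 150 (5.49%) and 45 (1.65%). Of these, 90 higher and 32 lower genes were shared, 60% and 71.1% of either list. With TMM factors, 63 genes were higher and 100 lower in the Gad1-rich cells, and with totals that left out hormone and mitochondrial genes 66 and 88, so the balance of the directions rests on the scaling.

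On the higher side, Pdyn was at 59.6 CPM under the BcBKO label against 21.1 CPM in the Gad1-rich cells, a log2 ratio of 1.498, and had 1.22 in the other beta cells. Pyy had 1.79 and 0.80, and 1.21 and 1.40 without the 1% of beta cells richest in it, so that the order of the classes turned. Pappa2 had 0.72 and 0.90, Dapl1 0.55 and 0.73, and Fkbp11 0.57 and 0.50. Apoe had 0.70 and 0.24, but the 1% of beta cells with the most Apoe held 67.0% and 69.5% of its UMIs, and without them the ratios were 0.07 and 0.26. Cd81, a tetraspanin, had 0.63 and 0.28. Cd74 (0.81 and 0.73) and C1qa (0.59 and 0.64) are macrophage markers, whose list of 10 summed to 80.9 CPM in flox/flox islets and 132 CPM in the other in Gad1-rich cells, and to 88.6 and 139 CPM in other beta cells. None of the 10 was at 0, and the part of RNA from macrophages in these values was not tested.

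On the lower side, Rgs2, a regulator of G-protein signalling, was at 153 CPM under the BcBKO label against 304 CPM in Gad1-rich cells, a log2 ratio of −0.99, and had −1.13 in the other beta cells. Gadd45b had −0.93 and −0.95. Mt1 had −0.71 and −0.90 and Mt2 −0.62 and −0.79, so that both metallothioneins were lower under the BcBKO label in each class while they were higher in Gad1-rich cells of each library. Atf3 had −0.60 in the Gad1-rich cells and −0.07 in the others, and −0.36 and −0.17 once the 1% of beta cells richest in it were left out. Slc2a2 had −0.29 and −0.45, and Npas4 −0.39 and −0.54. Whether any of these differences between libraries itself differed between the classes was not tested, since each class has 1 library per group.

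**Figure D5:**
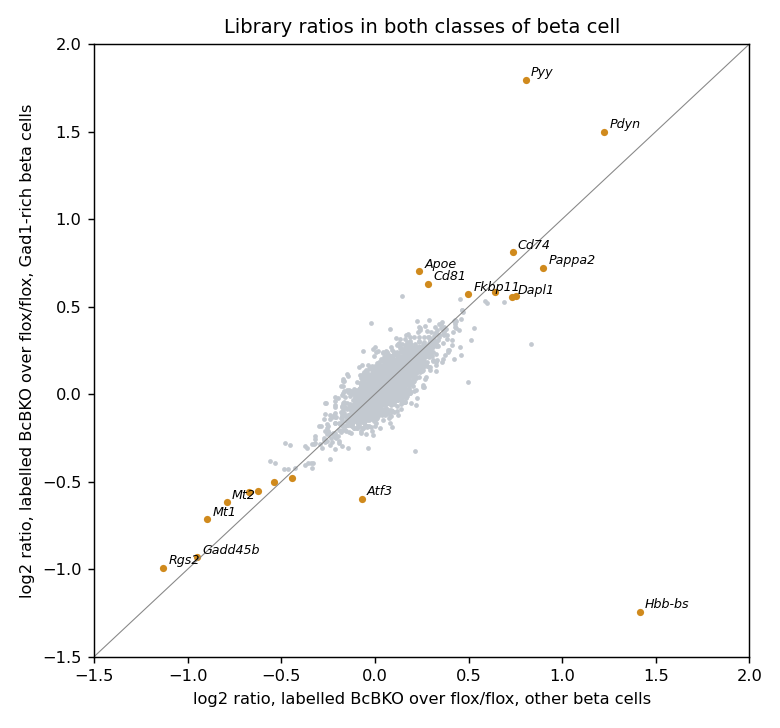
Log2 ratio of the library labelled BcBKO over flox/flox islets in other beta cells (x axis) and in Gad1-rich beta cells (y axis), 1 point per gene for 2734 genes, with the line of equal ratios. Coloured points are the 10 highest and 10 lowest genes in the Gad1-rich cells, of which 14 are labelled; Pyy, Pdyn, Apoe and Cd81 lie above the line and Hbb-bs and Atf3 below it. Without the 1% of cells richest in each gene, Pyy (1.21 and 1.40) and Apoe (0.07 and 0.26) lie below the line, and Hbb-bs has 0.89 and 0.93.

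Scrublet, a doublet caller, marked 170 barcodes (2.25%) of flox/flox islets and 177 (2.08%) of the other. Among Gad1-rich cells it marked 2.62% and 3.01%, and among other beta cells 3.49% and 2.92%, so called doublets did not gather in the Gad1-rich class of both libraries. They were kept. Without them 46 genes were higher and 14 lower in Gad1-rich cells of both libraries.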

How the data were processed

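The authors deposited, per library, a matrix of counts: whole UMIs per gene and barcode, not normalised, for 28692 genes. Per the submitters' processing notes, mm10, Cell Ranger 3.1.0 and Seurat 4.0.0 were used; per the file headers, the count matrix names cellranger 6.1.2. Which of them made the counts was not settled, and the annotation is not given in the sources used here. Gene positions are those of GENCODE M21 (GRCm38), which held 28339 identifiers.

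Levels are summed UMIs over summed totals (CPM). Log2 ratios have no pseudocount and exact conditional intervals, shares have exact binomial (Clopper-Pearson) intervals and CPM exact Poisson intervals, all at 95%. A count of 0 allows 3 counts. No statistical test was run, since each group is 1 library. Symbols occurring more than once (125 rows) were not compared. Named genes were the 15 highest and 15 lowest of 2579 eligible genes, ranked by the ratio nearer 0 of both libraries, the 10 highest and lowest library ratios, the 2 highest and 2 lowest of each list, the proposed marker genes, the Smarcd genes and the GABA genes, of which some are not reported here. Other genes, such as Egr1, Fos and the promoter matches, were chosen after their values were seen. Mitochondrial, ribosomal protein, sex-linked and unnamed genes and acinar markers were not eligible by size. The cells and gene lists were chosen with earlier results of these data known.

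The computation of ratios and intervals was tested on simulated data. Doublets were called with Scrublet in scanpy 1.11.5 at an expected rate of 8%, TMM factors came from edgeR 4.0.16 (R 4.3.3), and all other values from pandas 2.3.3, scipy 1.17.1 and numpy 2.4.6 in Python 3.11.15, with figures by matplotlib 3.10.9.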

Additional observations from a re-analysis of the deposited data

Results flagged for a closer look

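Hbb-bs, a beta-globin gene of red blood cells, went opposite ways in the 2 libraries, with a log2 ratio of Gad1-rich over other beta cells of 0.83 in flox/flox islets (85.3 against 47.9 CPM) and −1.82 under the BcBKO label (36.1 against 128 CPM). The difference was not tested. The 1% of beta cells with the most Hbb-bs held 87.7% and 87.5% of its UMIs, and without them the ratios were 0.22 (−0.01 to 0.44) and 0.17 (0.00 to 0.34).

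Barcodes that met the insulin rule for beta cells but had under 10000 UMIs were not among the cells compared. They numbered 438 and 525, with median depths of 1748 and 1960 UMIs, and held Gad1 at 135 CPM (112 to 160) in flox/flox islets and at 85 CPM (70.1 to 102) in the library labelled BcBKO, above the 40.3 and 30.3 CPM of all beta cells.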

How the results depend on the processing

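No paired analysis was possible because each group is 1 library, and for the same reason no replicate could be left out. The counts of genes higher and lower in both libraries, 44 and 16, were recomputed under 19 alternatives. The 44 became 11 with cells thinned to 10000 UMIs before ranking, 25 with values from UMIs not used for ranking, 22 with Gad1 over UMIs without insulin and mitochondrial genes, 21 within bins of total UMIs, 9 within bins of insulin share, 282 for the highest 10%, 13 for the highest 50%, 27 with totals without hormone and mitochondrial genes, 14 with TMM factors, 86 from 10 CPM and 16 from 50 CPM. The 16 became 7 with thinning, 8 with unused UMIs, 25 for the highest 10%, 29 against the 25% with the lowest Gad1 share and 36 with TMM factors. The 150 genes higher under the BcBKO label became 284 for the highest 10%, 66 without hormone and mitochondrial totals, 63 with TMM factors, 359 from 10 CPM and 56 from 50 CPM, and the 45 lower ones 88 and 100 with those scalings and 112 and 19 with those levels. The log2 ratio of Gad1 in unused UMIs, 1.13 and 1.29, became 1.29 and 1.45 for the highest 10%, 0.85 for the highest 50% in the library labelled BcBKO, and 1.27 and 1.45 without the 5% deepest cells. For 32 named genes in both libraries, 1280 of 1280 recomputed ratios kept their sign; since the genes were ranked by these ratios, this is a description. Without the 1% of cells richest in it, Hbb-bs in the Gad1-rich cells turned from −1.24 to 0.89 between the libraries. Leaving out the cells with the most UMIs of a gene was added after seeing the data, as was another seed for the random division. Depth limits Gad2 and Smarcd3, with 0 to 54 UMIs per class of cells.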

Other observations

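Genes of sterol and fatty acid synthesis and of glucocorticoid and clock control were not described above. All 6 measured sterol and fatty acid genes were above 0 in both libraries, where 61.2% of all compared genes were. Their medians were 0.19 and 0.14, with 0 called in both. Acly, which makes acetyl-CoA for lipid synthesis, was at 268 CPM in Gad1-rich cells against 228 CPM in flox/flox islets and at 312 against 269.8 CPM in the library labelled BcBKO. Within bins of insulin share 5 of the 6 stayed above 0 in both libraries. All 5 measured glucocorticoid and clock genes were above 0, with medians of 0.21 and 0.15, and 3 were within bins of insulin share. Tsc22d3, a glucocorticoid target, was at 33.3 against 27.4 CPM and 28.9 against 27.0 CPM. Nr3c1, the glucocorticoid receptor, was at 42.1 against 37.9 CPM and 40.3 against 36.1 CPM.

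Smarcd1 and Smarcd2, which encode the other BAF60 subunits, were under the level at which genes were compared. Smarcd2 was at 9.80 against 8.16 CPM in flox/flox islets and at 11.2 against 8.44 CPM in the library labelled BcBKO, log2 ratios of 0.26 (0.06 to 0.46) and 0.41 (0.22 to 0.61). Smarcd1 was at 9.59 against 7.74 CPM and 8.79 against 7.62 CPM, 0.31 (0.10 to 0.51) and 0.21 (−0.01 to 0.42).

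B cell markers, a list of 5, summed to 25.4 against 22.6 CPM in flox/flox islets and to 24.3 against 126 CPM in the library labelled BcBKO, where the other beta cells held the higher sum.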
